A study of Mus musculus with 4 samples.

Results

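The nuclear genes for the subunits of the mitochondrial respiratory chain and ATP synthase were followed in muscle stem cells at rest and after activation. They were taken by symbol: Nduf genes of the a, b, c, s and v series (complex I), Sdha to Sdhd (complex II), Uqcr genes and Cyc1 (complex III), Cox4 to Cox8 genes (complex IV) and Atp5 genes (complex V). Of the 31055 features in the files, 85 matched by symbol, and the 80 with at least 5 CPM (counts scaled to 1000000 per library) in any library are the members described here. They comprise 35 genes of complex I, 4 of complex II, 9 of complex III, 16 of complex IV and 15 of complex V. The remaining member, Atp5s, encodes a coupling factor that is not a subunit. Ndufa4 and Ndufa4l2 were counted with complex IV, to which the Ndufa4 protein belongs in spite of its name. The 5 matched genes below 5 CPM in every library were Cox4i2, Cox7b2, Cox8b, Cox8c and a second gene ID named Atp5o. Of the members, 76 reached 5 CPM in all 4 libraries, and Cox6a2, Cox6b2, Cox7a1 and Ndufa4l2 did so in some only. Those 4 entered through the libraries where they were high and so had to differ between libraries.

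Muscle stem cells, also called satellite cells, express Pax7 and rebuild injured fibres. Sorting on GFP isolated them from Tg:Pax7-nGFP mice aged 2 to 4 months, a strain in which Pax7 control elements drive a nuclear GFP, and 10x Genomics droplets gave the RNA counts of single cells. One pair of groups was from the eye-moving extraocular muscles (EOM) and the other from the tibialis anterior (TA), a lower leg muscle. They were either processed directly after sorting (quiescent) or first cultured (activated), for 4 days in growth media with a Matrigel coating under 3% oxygen. Each of the 4 groups was 1 library and all groups carried the same transgene, so muscle, culture and library cannot be told apart, groups were compared without a test and the intervals hold counting error alone. How many animals went into a library is not given in the sources used here.

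The respiratory chain passes electrons from nutrients to oxygen and stores the energy as a proton gradient across the inner mitochondrial membrane. Complex I takes electrons from NADH and complex II from succinate. Complex III hands them to cytochrome c and complex IV to oxygen, and complex V uses the gradient to make ATP. All complexes but II combine proteins made from nuclear genes with proteins encoded in mitochondrial DNA, so both genomes must supply parts. Quiescent muscle stem cells are known for few mitochondria, and their mitochondrial content is known to increase on activation and differentiation. Several subunits of complex IV exist as a widely expressed form and a form made mainly in heart and skeletal muscle, among them Cox6a2, Cox7a1 and Cox8b.

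The 300 bases around the start of 64 of the 80 members (250 before to 50 after it, RefSeq, GRCm38.p6) were searched on both strands for short motifs of factors known for respiratory genes. The NRF1 motif GCATGCG was in 11 of the 64 (17.2%) and in 4.01% of 27025 genes with such a window, and the ETS motif CCGGAAG, bound by GABPA, was in 16 (25%) and 9.93%. The YY1 motif AAGATGGC was in 9 (14.1%) and 3.19%, and the ERR motif TCAAGGTCA in 2 (3.13%, Atp5g3 and Sdhd) and 0.466%. In contrast, the E-box CAGCTG, a form bound by myogenic factors such as Myog, was in 5 (7.81%) and 18.3%, and the MEF2 motif in 1 (1.56%, Cox5b) and 4.23%. No searched motif overlaps another except the NRF1 motif, whose copies on both strands share bases in several members, Cox6a1 among them. Members with the NRF1 motif had a median log2 ratio of activated over quiescent cells of 1.07 in EOM and 0.89 in TA, and members without it 1.29 and 1.17. Members with the ETS motif were at 1.098 and 1.03, and those without it at 1.29 and 1.15. The other motifs went the other way, YY1 with 1.30 and 1.24 against 1.21 and 1.12, the E-box with 1.39 and 1.35 against 1.21 and 1.12, and ERR, in 2 genes, with 2.30 and 2.23 against 1.23 and 1.12, except MEF2, whose 1 gene is Cox5b. These matches describe letters in the windows and are no measure of binding. Cox8b, whose window is printed below, is not a member, so its E-boxes are not among the 5 counted. The windows of Atp5o, high in activated cells of both muscles, and of the muscle form Cox7a1 held none of the motifs and are not printed. A few windows are printed 5′ to 3′ along the gene, with the motif letters in capitals, because they belong to genes the results turn on: Sdhd, the complex II gene with the largest activation ratio (chr9:50603800-50604099, minus strand, an ETS and an ERR motif); Ndufs4 (chr13:114388045-114388344, minus strand, a YY1 motif); Cox6a1 (chr5:115348909-115349208, minus strand, NRF1 and ETS motifs); and the widely expressed and the muscle form of the same subunit, Cox8a (chr19:7217567-7217866, minus strand, ETS motifs) and Cox8b (chr7:140900397-140900696, minus strand, E-boxes).
Sdhd: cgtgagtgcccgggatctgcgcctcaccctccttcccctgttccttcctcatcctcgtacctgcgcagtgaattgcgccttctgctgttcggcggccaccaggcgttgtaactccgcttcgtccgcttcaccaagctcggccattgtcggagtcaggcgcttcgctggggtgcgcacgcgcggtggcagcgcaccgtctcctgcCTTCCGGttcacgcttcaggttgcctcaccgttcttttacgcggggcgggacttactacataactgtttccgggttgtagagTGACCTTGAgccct
Ndufs4: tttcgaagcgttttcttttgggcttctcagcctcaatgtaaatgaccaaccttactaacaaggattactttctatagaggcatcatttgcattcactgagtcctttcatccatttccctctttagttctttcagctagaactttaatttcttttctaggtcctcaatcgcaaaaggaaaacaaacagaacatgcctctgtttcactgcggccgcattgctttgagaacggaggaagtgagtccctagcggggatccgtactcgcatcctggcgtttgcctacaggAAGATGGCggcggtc
Cox6a1: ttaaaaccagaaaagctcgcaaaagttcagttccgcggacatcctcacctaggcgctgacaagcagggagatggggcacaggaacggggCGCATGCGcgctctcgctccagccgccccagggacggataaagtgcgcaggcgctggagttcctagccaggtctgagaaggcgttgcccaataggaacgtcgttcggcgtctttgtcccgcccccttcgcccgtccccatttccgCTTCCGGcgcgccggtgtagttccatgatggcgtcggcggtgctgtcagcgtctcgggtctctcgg
Cox8a: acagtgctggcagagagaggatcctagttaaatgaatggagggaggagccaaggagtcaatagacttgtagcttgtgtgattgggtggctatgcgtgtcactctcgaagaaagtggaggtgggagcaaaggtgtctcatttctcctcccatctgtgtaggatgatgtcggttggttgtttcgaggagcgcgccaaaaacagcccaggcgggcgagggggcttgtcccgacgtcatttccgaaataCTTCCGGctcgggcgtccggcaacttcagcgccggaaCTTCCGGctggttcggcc
Cox8b: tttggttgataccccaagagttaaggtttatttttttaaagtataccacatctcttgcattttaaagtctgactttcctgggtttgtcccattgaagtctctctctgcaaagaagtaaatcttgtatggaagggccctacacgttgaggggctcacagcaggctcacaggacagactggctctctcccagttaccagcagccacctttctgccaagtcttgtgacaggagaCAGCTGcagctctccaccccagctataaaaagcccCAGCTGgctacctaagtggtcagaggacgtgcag

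After filtering, the libraries held 2908 to 5563 cells and 15349294 to 122730850 unique molecular identifiers (UMIs). The median UMIs per cell were 4662 and 5038 in quiescent and 21261 and 23383 in activated EOM and TA cells. The filter kept cells with at most 10% mitochondrially encoded UMIs and set aside 11.7% of quiescent EOM, 40.5% of quiescent TA, 20.9% of activated EOM and 24.7% of activated TA barcodes. Libraries shared 5 to 12 barcodes pairwise. Stem cell markers (8 listed, among them Pax7 and Vcam1) summed to 4120 and 4882 CPM in quiescent EOM and TA and to 474 and 434 CPM in activated cells. Early differentiation markers (10, among them Myog and Acta1) summed to 108 and 96.4 CPM and to 6123 and 10590 CPM. Proliferation markers (5) summed to 13, 12.2, 1442 and 1359 CPM in the order quiescent EOM, quiescent TA, activated EOM, activated TA, the order used throughout. Fibroblast markers (7) summed to 598, 708, 87.8 and 78.9 CPM, and endothelial markers (7) to 45.6, 21.0, 4.11 and 4.45 CPM. Mural or smooth muscle markers (6) went the other way, at 281, 109.5, 2065 and 1185 CPM, of which Acta2, an actin also made by myoblasts, made up 267, 99.7, 2030.4 and 1175 CPM, while Myh11 and Kcnj8 were under 1 CPM in every library. The part of these shifts in the differences given here was not tested.

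Summed over the 80 members, subunit RNA was 17514, 17393, 39478 and 36814 CPM, so activated cells of either muscle devoted more than 2 times the share of their RNA to these genes. The ratio of the sums of activated to quiescent cells was 2.25 (95% interval 2.25 to 2.26) in EOM and 2.12 (2.11 to 2.13) in TA. A gene was counted as higher or lower when its CPM differed at least 1.5-fold, among genes with at least 5 CPM on either side, and log2 ratios were taken with 1 CPM added to both sides. In EOM 64 of 80 measured members were higher in activated cells, against 35.3% of all 10065 genes measured, and 1 was lower, against 33.3%. In TA 58 of 78 were higher, against 38.9% of 9860 genes, and 3 were lower, against 32.2%. At 2-fold, 54 members were higher in EOM (all genes 25.4%) and 49 in TA (29.2%), with 1 lower in each (25.3% and 24.7%). The median log2 ratio of members was 1.26 in EOM and 1.16 in TA, and that of all genes 0.06 and 0.14. Scaling by TMM moved the median of all genes to 0.43 in EOM and 0.41 in TA and their split to 47.4% higher and 24.6% lower in EOM and 46.9% and 26.5% in TA. Under it 71 members were higher in EOM and 67 in TA.

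The ratios of both muscles were set side by side. Of 78 members measured in both, 58 were higher in activated cells of both muscles, 5 passed the limit in EOM and not in TA, none in TA and not in EOM, and 1, Cox6b2, was lower in both. Of all 9602 genes measured in both, 33.1% were higher in both, 284 genes passed the limit in EOM only, 551 in TA only, and 2737 were lower in both. Between muscles the ratios of 76 of the 78 lay within 1.5-fold of each other (all genes 82.7%). The libraries of the 2 muscles share no cells, and each muscle's ratio rests on 1 pair of libraries. Of the 15 members that bind substrates or carry redox centres, 13 were higher in both muscles, with medians of 1.52 and 1.47, the exceptions being Sdha and Ndufv1.

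**Figure D1:**
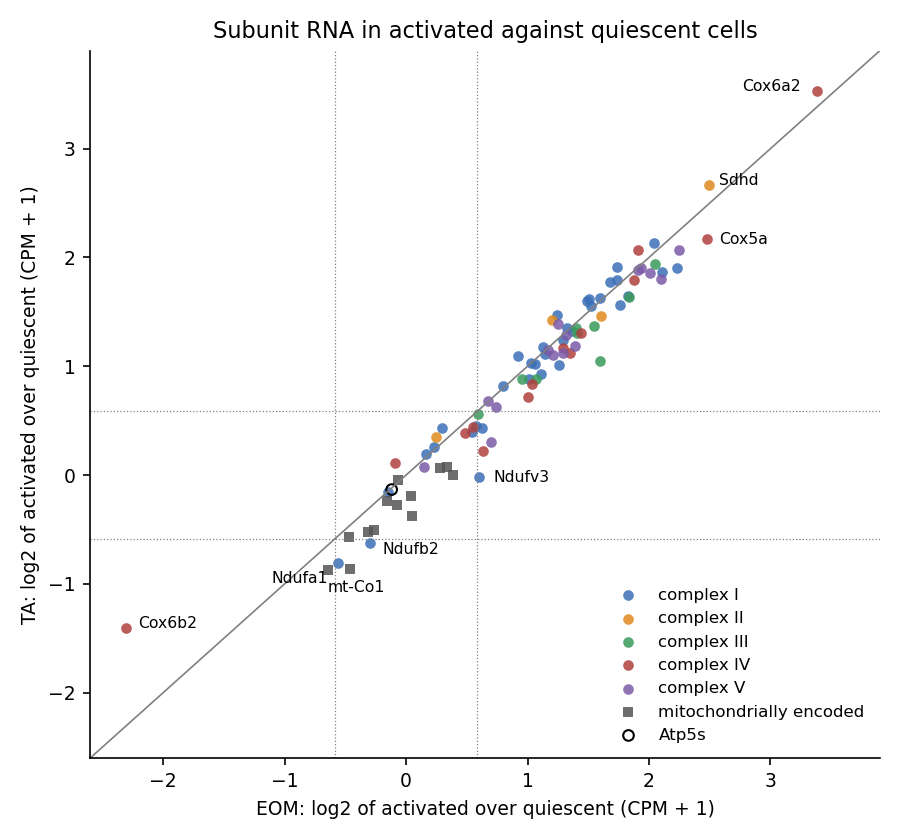
Activation ratios of the members in both muscles. Each point is a gene, with the log2 ratio of activated over quiescent cells (CPM + 1) in EOM on the x axis and in TA on the y axis. Colours mark complexes I to V, squares the 13 mitochondrially encoded genes, the diagonal equal ratios and dotted lines a 1.5-fold difference on this scale. Most nuclear subunits lie above both upper lines and near the diagonal, with Cox6a2, Sdhd and Cox5a highest and Cox6b2 lowest, while the squares lie near or below 0.

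Among the members of complex II, the succinate dehydrogenase of the citric acid cycle, Sdhd had the largest ratio of any member above 20 CPM in either muscle. Sdhd (chromosome 9, 50596357 to 50603812, GRCm38), which encodes a membrane anchor, stood at 41.6, 43.7, 239 and 283 CPM. Both activated libraries were far above both quiescent ones, 5.75-fold (5.34 to 6.20) in EOM and 6.47-fold (6.0 to 7.0) in TA. The iron-sulfur subunit gene Sdhb was at 69.7, 75.1, 215 and 209 CPM, 3.08-fold and 2.79-fold higher. The other anchor, Sdhc, was at 52.7, 45.0, 123 and 123 CPM, 2.32-fold and 2.72-fold higher. Sdha, the flavoprotein that binds succinate, stood apart with 95.4, 84.1, 114 and 107 CPM. Its ratios of 1.19 (1.13 to 1.25) and 1.28 (1.21 to 1.35) were under the limit, so the 4 subunits, which make up the complex in equal numbers, did not share 1 ratio.

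In complex I, 25 of 35 members were higher in activated cells of both muscles. Ndufs4, an accessory subunit close to the NADH-oxidising arm, was at 33.6, 41.5, 161 and 157 CPM, 4.80-fold (4.42 to 5.22) higher in EOM and 3.79-fold (3.51 to 4.11) in TA. Ndufa12 was at 104, 128, 451 and 469 CPM, 4.33-fold and 3.66-fold higher. Ndufa8 had 59.6, 54.5, 248 and 242 CPM, 4.16-fold and 4.43-fold higher. These small accessory subunits carry no redox centre.

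The core subunits of complex I that hold its redox centres or line its quinone site had ratios from 1.23 to 3.37 in EOM. Ndufs7, at the quinone site, was at 86.8, 72.0, 291 and 273 CPM, with ratios of 3.36 in EOM and 3.79 in TA. Ndufs3 had 3.37 and 3.50, Ndufv2 2.90 and 2.96, Ndufs1 2.40 and 2.82, and Ndufs8 2.19 and 2.27. Ndufv1, which binds NADH and the flavin, was at 98.2, 88.5, 120.5 and 119.7 CPM and thus only 1.23-fold (1.17 to 1.29) and 1.35-fold (1.28 to 1.43) higher. Besides Ndufv1, the complex I genes not past the limit in both muscles were Ndufa1, Ndufa3, Ndufa6, Ndufa7, Ndufa13, Ndufb2, Ndufb4, Ndufb11 and Ndufv3.

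A few complex I genes were lower in activated cells. Ndufa1, an X-linked membrane subunit needed to assemble the complex, was at 148, 153, 99.8 and 86.6 CPM. It was below the quiescent level in both activated libraries, with ratios of 0.675 (0.647 to 0.705) in EOM and 0.568 (0.542 to 0.594) in TA, of which only that in TA passed the limit. Ndufb2 was at 196, 216, 159 and 139.7 CPM, with ratios of 0.813 (0.784 to 0.843) and 0.647 (0.623 to 0.672). Ndufa6 was at 252, 216, 227 and 194 CPM, with ratios of 0.899 and 0.898. Under TMM scaling Cox6b2 was the 1 lower member in each muscle, and the shift is larger than the distance of Ndufb2 in EOM and of Ndufa6 in both muscles from a ratio of 1, so their direction depends on the scaling.

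All members of complex III were higher in activated EOM cells, and 8 of 9 in TA. Cyc1, the cytochrome c1 subunit, was at 109, 115, 457 and 446 CPM, 4.18-fold (3.99 to 4.37) and 3.87-fold (3.69 to 4.06) higher. Uqcrfs1, the Rieske iron-sulfur protein, was at 101, 115, 363 and 360.3 CPM, 3.60-fold and 3.12-fold higher. The core proteins Uqcrc1 and Uqcrc2 had ratios of 2.65 and 2.67 in EOM and 2.57 and 2.49 in TA. Uqcrh, the hinge protein, was at 677, 635, 1021 and 936 CPM and had the smallest ratios of the complex, 1.51 and 1.47. The redox subunits Cyc1 and Uqcrfs1 were the members with the largest ratios of the complex in both muscles.

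In complex V, 13 of 15 members were higher in both muscles. Atp5o, part of the stalk that joins the catalytic head to the membrane, was at 189.95, 186.5, 904 and 787 CPM, 4.76-fold and 4.22-fold higher. The stalk gene Atp5c1 was at 209, 209.8, 847 and 763 CPM, 4.05-fold (3.91 to 4.18) and 3.64-fold (3.51 to 3.77) higher. Of the catalytic head, Atp5b was at 431, 468, 1134 and 1066 CPM and Atp5a1 at 364, 344, 819.9 and 764 CPM. Their ratios were 2.63 and 2.25 in EOM and 2.28 and 2.22 in TA, lower than those of Atp5o and Atp5c1. Other stalk genes varied. Atp5f1 was at 251, 258, 946 and 957 CPM, while Atp5d had ratios of 2.32 and 2.16 and Atp5h of 1.60 and 1.60. The exceptions were Atp5e (592, 569, 656 and 597 CPM, ratios 1.11 and 1.05) and Atp5k (169, 186, 276 and 231 CPM), which passed the limit in EOM at 1.63 and not in TA at 1.24. The ring of complex V is built from 1 protein encoded by 3 genes, and their ratios differed: Atp5g1 and Atp5g3 had ratios of 3.84 and 4.29 in EOM and 3.75 and 3.50 in TA, against 2.39 and 2.61 for Atp5g2. Atp5g2 UMIs were accordingly 44.4%, 40.9%, 32.1% and 33.2% of the family.

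Complex IV had the smallest share of such genes, with 9 of 14 members measured in both muscles higher in both. Cox5a (chromosome 9, 57521274 to 57532426), a subunit of the matrix side, was at 219, 281, 1219 and 1267 CPM, 5.58-fold (5.40 to 5.76) and 4.51-fold (4.38 to 4.65) higher. Ndufa4 was at 318, 312, 1194 and 1312 CPM, 3.76-fold and 4.20-fold higher, and Cox7b, at 191, 178, 704 and 619 CPM, was 3.68-fold and 3.49-fold higher. Cox4i1, which is needed early in assembly, was little different, at 968, 951, 1356 and 1247 CPM with ratios of 1.40 and 1.31. Cox5b, the zinc-binding partner of Cox5a, was at 284.5, 353.5, 442 and 411 CPM, with ratios of 1.55 and 1.16. Cox7a2l, which joins complexes III and IV into supercomplexes, was at 341, 265, 320.2 and 286 CPM, with ratios of 0.938 (0.913 to 0.964) and 1.08 (1.04 to 1.12), the former within the shift of TMM scaling. Cox5a and Cox5b, which belong to the same enzyme, thus differed several-fold in their activation ratios.

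**Figure D2:**
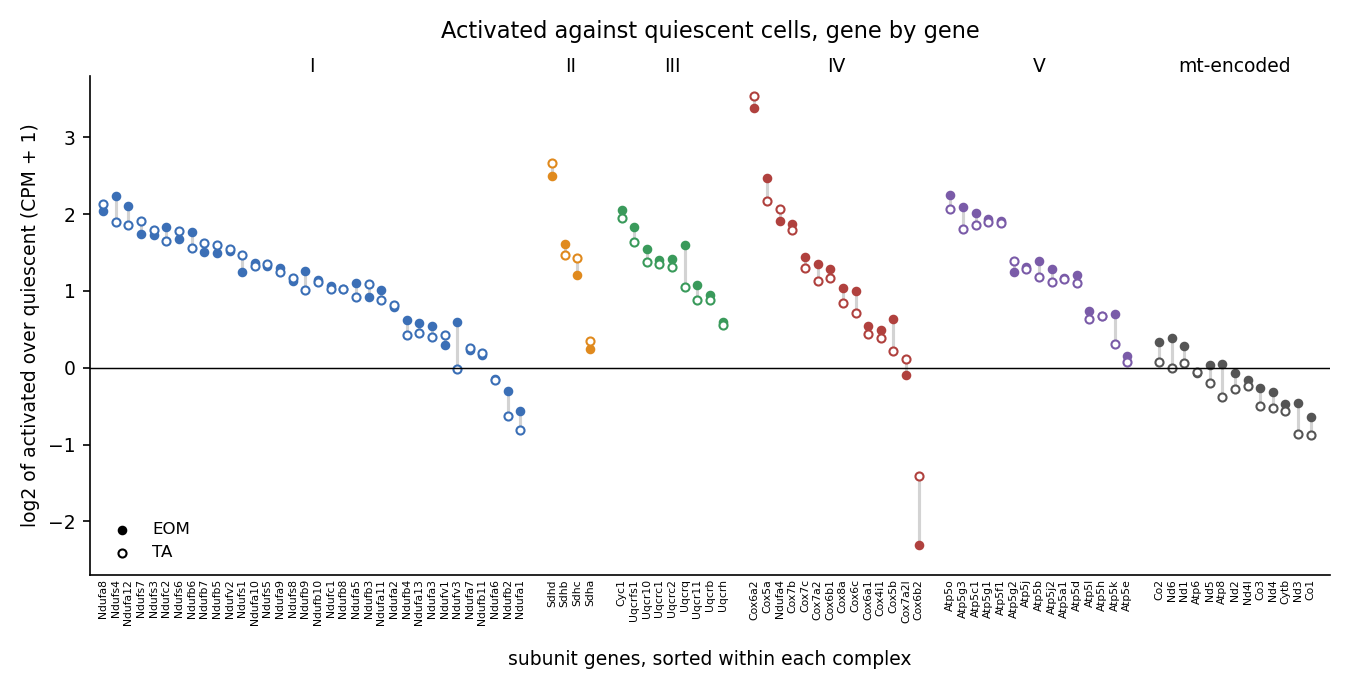
Activation ratio of each subunit gene by complex. The y axis gives the log2 ratio of activated over quiescent cells (CPM + 1), filled points EOM and open points TA, joined for each gene and sorted by the mean within a complex, with members measured in both muscles shown except 1 of complex I and Atp5s. Every complex spans a range, from 2.49 (Sdhd) to 0.25 (Sdha) in complex II of EOM for example, and the mitochondrially encoded genes on the right lie around or below 0.

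The 13 mitochondrially encoded protein genes, which supply the other subunits of complexes I, III, IV and V, did not share this difference. They summed to 69629, 78345, 62324 and 62115 CPM, with ratios of the sums of 0.895 in EOM and 0.793 in TA. None was higher and 1 was lower in EOM, and none was higher and 2 were lower in TA, mt-Co1 being lower in both (ratios 0.639 and 0.547) and mt-Nd3 in TA (0.549). The other ratios lay between 0.722 (mt-Cytb) and 1.31 (mt-Nd6) in EOM and between 0.676 (mt-Cytb) and 1.05 (mt-Co2) in TA. Their median log2 ratio was -0.07 and -0.28 in CPM and 0.33 and 0.00 under TMM scaling, so the direction depends on the scaling. The cap on the mitochondrial share removes the cells with the highest values of these genes and thus bears on their levels.

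A ratio of nuclear to mitochondrially encoded UMIs within a library needs no scaling. It was 0.252, 0.222, 0.633 and 0.593 nuclear UMIs per mitochondrially encoded UMI over all members. Activated cells were above quiescent cells 2.52-fold (2.51 to 2.53) in EOM and 2.67-fold (2.66 to 2.68) in TA. With no cap on the mitochondrial share the folds were 2.29 and 2.79, and with a cap of 5% they were 2.03 and 2.03. By complex, the EOM fold was 2.13 for complex I, 3.2 for III, 2.51 for IV and 2.56 for V, and the TA fold 2.40, 3.06, 2.76 and 2.38. Complex III, which has mt-Cytb as its only mitochondrially encoded subunit, had the largest fold in both muscles.

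**Figure D3:**
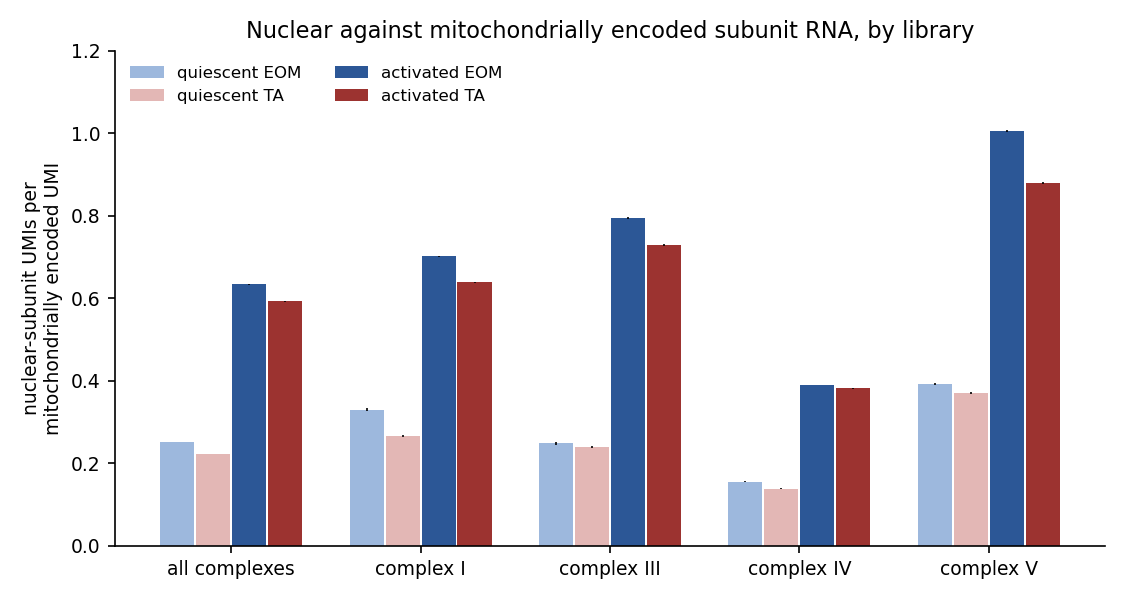
Nuclear subunit UMIs per mitochondrially encoded UMI, for all members and for the 4 complexes with subunits from both genomes. Bars are the 4 libraries, and the thin lines at their tops are 95% intervals for counting error. Both activated libraries are above both quiescent libraries in every set, for example 1.01 and 0.880 against 0.392 and 0.370 for complex V.

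Per cell, the mean was 85.1, 91.8, 871 and 880 member UMIs, a 10.2-fold and 9.58-fold difference, while the mean of all UMIs differed 4.54-fold and 4.53-fold. For the mitochondrially encoded genes it was 338, 414, 1375 and 1484 UMIs, 4.06-fold and 3.59-fold. UMIs per cell depend on sequencing depth as well as on RNA content. Within libraries the member share of a cell's UMIs had a median of 1.73%, 1.69%, 3.96% and 3.66%, with the middle 80% of cells between 1.29% and 2.21%, 1.26% and 2.20%, 3.34% and 4.63%, and 3.11% and 4.29%. The 10th percentile of either activated library was thus above the 90th percentile of either quiescent one. Across cells, the Spearman correlation of the member share with the mitochondrially encoded share was -0.00264 and 0.0810 in quiescent (3594 and 2908 cells) and 0.311 and 0.276 in activated cells (5563 and 4281 cells). Both shares have the cell's own UMI total as denominator, and cells of a library are not replicates. The median was 80 and 85 member UMIs per quiescent cell and 854 and 870 per activated cell, so counting noise is larger in the quiescent shares. The cap also cuts the range of the mitochondrially encoded share. The part of both in the difference between correlations was not tested.

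The muscle forms of complex IV subunits were rare in quiescent cells, and only Cox6a2 was higher in activated cells of both muscles. Cox6a2 (chromosome 7, 128205435 to 128206387), the heart and skeletal muscle form of subunit VIa, was at 0.172, 0.0651, 11.2 and 11.3 CPM. The quiescent values rest on 3 UMIs and 1 UMI, and the ratios of 65.4 (22.3 to 318) and 174 (31.1 to 6863) are correspondingly loose. Cox6a2 made up 0.0724%, 0.0267%, 3.14% and 3.30% of the UMIs of Cox6a1 and Cox6a2 together. Cox6a1, the widely expressed form, was at 237, 244, 347 and 331 CPM, with ratios of 1.46 and 1.35. Cox7a1, the muscle form of subunit VIIa, was at 8.65, 4.50, 6.17 and 3.43 CPM. It was thus lower in activated cells of both muscles, by less than 1.5-fold. Cox8b was below 5 CPM in all libraries (1.60, 3.65, 2.93 and 1.68) and made up 0.191%, 0.429%, 0.170% and 0.111% of the Cox8 family, while Cox8c had no UMI in any library. Since these are 3′ UMI counts of genes with different ends, family shares are compared between libraries only.

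Cox6b2, known as the testis form of subunit VIb, was the member that was lower in activated cells of both muscles by the widest margin. It lies on chromosome 7 (4751792 to 4753094) and was at 27.5, 10.4, 4.75 and 3.29 CPM, with ratios of 0.173 (0.153 to 0.195) in EOM and 0.318 (0.263 to 0.387) in TA. Its share of the Cox6b family was 8.14%, 3.2%, 0.621% and 0.465%, highest in quiescent EOM. Cox6b1 was at 310.04, 313, 760.005 and 706 CPM. In the Cox7a family, Cox7a2l held 45.3%, 38.6%, 23.6% and 23.9% of UMIs and Cox7a2 53.6%, 60.7%, 76.0% and 75.8%. Cox4i2, a form known to be induced by low oxygen in lung, was at 0.189%, 0.137%, 0.0972% and 0.0337% of its family. Cox4i2 itself was at 1.83, 1.30, 1.32 and 0.420 CPM. The 95% intervals of the EOM libraries overlapped (1.25 to 2.59 quiescent, 1.12 to 1.54 activated). Only the cultured cells were kept at 3% oxygen, so oxygen and culture cannot be told apart. These values rest on 32, 20, 162 and 43 UMIs, and an effect of oxygen was not tested.

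Ndufa4l2 (chromosome 10, 127514967 to 127517154), a paralog of Ndufa4 known as a target of hypoxia-inducible factor, was found at more than 1 CPM only in activated EOM cells. It was at 0, 0.912, 12.8 and 0.538 CPM, the quiescent EOM library having no UMI. Against a floor of 3 UMIs over that library, activated EOM cells were at least 74.5-fold higher. Activated TA cells had a ratio of 0.589 (0.323 to 1.15) to quiescent TA cells. Both activated libraries were cultured under 3% oxygen, so oxygen and culture cannot be told apart. An effect of oxygen on Ndufa4l2 was not tested. Activated EOM was 23.8-fold (18.2 to 31.7) above activated TA.

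Between quiescent EOM and TA cells few members differed past the limit. The ratio of the sums was 1.01, and the median log2 ratio was 0.04 against 0.10 for all genes, and TMM scaling moved these to -0.09 and -0.02. Of 78 measured members 2 were higher in EOM, where 13.4% of all 9228 genes were, and none was lower, where 6.68% were. With a cap of 5% on the mitochondrial share, which leaves 263 EOM and 46 TA cells, 8 were higher and 2 lower. At 2-fold 1 was higher (all genes 4.84%) and none lower (2.65%). The 2 were Cox6b2, at 27.5 against 10.4 CPM (2.65-fold, 2.21 to 3.195), and Cox7a1, at 8.65 against 4.50 CPM (1.92-fold, 1.44 to 2.60). Cox7a1 reached 5 CPM in the EOM libraries alone, so its entry among the members favoured a difference between muscles. Cox6b2 did so in the quiescent libraries alone. Next came Cox7a2l (1.29-fold), Ndufs7 (1.21-fold), Sdhc and Ndufa6 (1.17-fold each). At the other end were Uqcrq, a small complex III subunit, at 275 against 385 CPM (ratio 0.714, 0.687 to 0.741), Cox5a (0.778), Cox5b (0.805), Ndufs4 (0.810) and Ndufa12 (0.812). The mitochondrially encoded sum was lower in EOM (ratio 0.889), and 1.13-fold (1.13 to 1.14) more nuclear UMIs were counted per mitochondrially encoded UMI. With no cap on the mitochondrial share that fold was 1.39, and with a cap of 5% it was 1.05. The quiescent TA library lost the most cells to the cap.

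Activated EOM cells were slightly above activated TA cells for most members. The median log2 ratio was 0.11, against -0.01 for all genes, and 70 of 79 measured members were above 0, where 4330 of all 8892 genes were. The ratio of sums was 1.07 for all members and between 0.956 (complex II) and 1.08 (complex V) by complex. Counted at 1.5-fold, 3 were higher in EOM (all 8892 genes 6.20%) and none lower (3.00%), and at 2-fold 1 was higher (2.97%) and none lower (1.37%). These were Ndufa4l2, Cox7a1 (6.17 against 3.43 CPM, 1.80-fold) and Ndufv3. Ndufa4l2 reached 5 CPM in activated EOM alone and Cox7a1 in the EOM libraries alone, so both became members through the higher side. Ndufv3 (chromosome 17, 31520115 to 31531331), a small subunit beside the NADH site, was at 104, 103, 157 and 102 CPM. The activated EOM library was the only one that stood apart, 1.55-fold (1.51 to 1.59) above activated TA. Sdhd was at the other end, at 239 against 283 CPM (ratio 0.847, 0.833 to 0.861), followed by Ndufa4 (0.911), Ndufa12 and Cox5a (0.962 each) and Uqcrb (0.966). After Ndufv3, the highest above 20 CPM were Ndufc1 and Atp5k (1.19-fold each) and Ndufa6 and Ndufa3 (1.17-fold each). The summed differentiation markers were lower in the activated EOM library, 6123 against 10590 CPM. Among cells without a Myog UMI the median was 0.13.

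Activated cells were then divided by Myog, the factor that marks commitment to differentiation. Each cell with at least 2000 UMIs was thinned to 2000, and cells with at least 1 Myog UMI were called Myog-holding. This gave 2741 Myog-free and 2791 Myog-holding cells in EOM, and 1654 and 2580 in TA. Myog itself, on which the split was made, was at 79.3 and 2981 CPM in EOM and 138 and 2531 CPM in TA at full depth, so the Myog-free cells are low in Myog rather than devoid of it. From Myog-free to Myog-holding cells Pax7 went from 118 to 29.9 CPM and from 90.5 to 30.6 CPM, and Mki67, a proliferation marker, from 219.9 to 144 CPM and from 183 to 133 CPM. The mural or smooth muscle list went from 1293 to 2884 CPM in EOM and from 767 to 1475 CPM in TA, nearly all of it Acta2 (1238 to 2872 CPM and 759 to 1463 CPM), and the part of this in the differences was not tested.

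Nearly every member was slightly higher in Myog-holding cells. Members summed to 37664 and 41406 CPM in EOM and to 34691 and 38288 CPM in TA, a ratio of 1.1 in both. In EOM 77 of 80 measured members were above 0 on the log2 scale and in TA 77 of 77, with medians of 0.13 and 0.14 against -0.11 and -0.08 for all genes. Of all genes, 3342 of 9039 were above 0 in EOM and 3433 of 8866 in TA. Few members passed 1.5-fold. In EOM 3 were higher and 2 lower (all 9039 genes 10.3% and 16.7%), and at 2-fold 1 and 1 (6.58% and 6.56%). In TA 1 was higher and none lower (all 8866 genes 7.91% and 8.80%), and at 2-fold 1 and none (4.31% and 2.21%). The complexes were alike, with ratios of sums from 1.08 to 1.12 in EOM and 1.1 to 1.12 in TA. The mitochondrially encoded genes moved by the same ratio, 1.1 and 1.09, and nuclear UMIs per mitochondrially encoded UMI were 0.632 and 0.634 in EOM (fold 1.003, 1.001 to 1.005) and 0.588 and 0.595 in TA (1.011, 1.009 to 1.014). Without the cap, the TA fold was 1.08. Thus the ratio between the genomes, which differed more than 2-fold between quiescent and activated cells, was nearly level across Myog states.

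**Figure D4:**
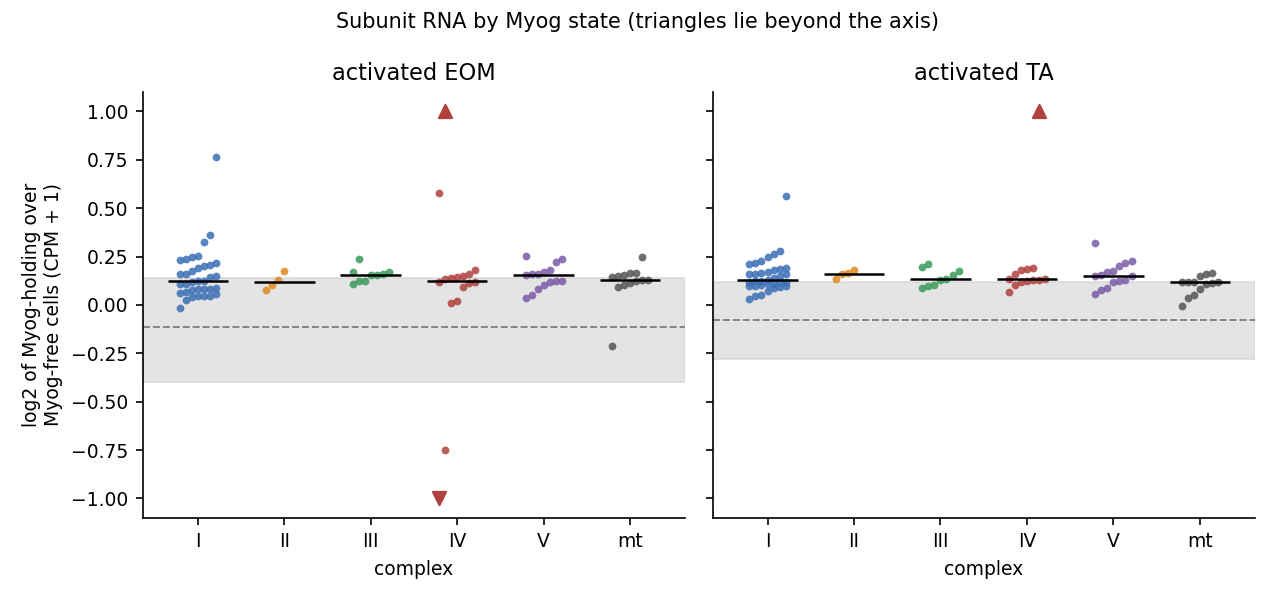
Members by Myog state in activated EOM and TA cells. Points are genes, the y axis is the log2 ratio of Myog-holding over Myog-free cells (CPM + 1), bars are medians by complex, the grey band and dashed line are the interquartile range and median of all genes, and triangles mark genes beyond the axis (Cox6a2 above, Ndufa4l2 below). Complexes I to V and the mitochondrially encoded genes have medians between 0.12 and 0.16, near the upper edge of the band.

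Against that even background, the isoform genes and Ndufv3 stood out under the 10% mitochondrial cap. With a cap of 5%, which leaves 185 Myog-holding cells in EOM and 200 in TA, 0 members were counted as higher in either muscle. Cox6a2 was at 0.538 CPM in Myog-free and 22.6 CPM in Myog-holding EOM cells (42.0-fold, 29.9 to 60.8) and at 0.718 and 18.7 CPM in TA (26-fold, 18.1 to 38.7). Its share of Cox6a UMIs went from 0.156% to 6.09% in EOM and from 0.228% to 5.16% in TA. Cox8b, the muscle form of subunit VIII, went from 5 to 355 UMIs in EOM, 0.0792 to 5.96 CPM (75.4-fold, 32.0 to 234), and from 5 to 167 UMIs in TA, 0.120 to 2.76 CPM (23.1-fold, 9.71 to 72.1). Cox7a1 was 1.60-fold (1.38 to 1.86) higher in EOM, at 4.78 and 7.64 CPM, and 2.23-fold (1.74 to 2.89) in TA, at 1.99 and 4.44 CPM, below the 5 CPM limit. Their widely expressed partners were nearly level: Cox6a1 had ratios of 1.01 and 1.09, Cox8a 1.08 and 1.095, and Cox7a2 1.08 and 1.07. Ckm, the muscle creatine kinase, went from 0.966 to 39.3 CPM in EOM and from 0.574 to 28.8 CPM in TA over the same cells.

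Among members at 20 CPM or more, Ndufv3 was the highest apart from Cox6a2. It was at 117 and 199.99 CPM in EOM (1.71-fold, 1.66 to 1.76) and at 79.1 and 117 CPM in TA (1.48-fold, 1.42 to 1.55). In EOM Ndufa9 (1.29-fold), Ndufa6 (1.26-fold) and Ndufs5 (1.19-fold) came after it. In TA the order was Atp5k (1.25-fold), Ndufa6 (1.21-fold), Ndufa9 (1.2-fold) and Ndufb11 (1.19-fold). Among the lowest were Ndufb10 (0.989 and 1.03), Cox5a (1.01 and 1.05) and Atp5g1 (1.03 and 1.04), in both muscles, with Cox6a1 and Ndufa3 (1.02) in EOM and Ndufs7 (1.02) and Ndufa12 (1.04) in TA. Cox5a and Atp5g1, with large activation ratios, were thus nearly level across Myog states. Ndufa4l2 was lower in Myog-holding EOM cells, at 19.0 and 6.17 CPM (ratio 0.324, 0.287 to 0.364), while in TA it was at 0.454 and 0.596 CPM. Cox6b2 was also lower, at 6.16 and 3.26 CPM in EOM (0.529, 0.443 to 0.630) and at 3.97 and 2.81 CPM in TA (0.709, 0.569 to 0.883).

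With cells divided further into those with 0, 1, 2 and at least 3 Myog UMIs of 2000 (2741, 519, 223 and 2049 cells in EOM, and 1654, 494, 301 and 1785 in TA), the genes differed in how they followed the Myog count. Cox6a2 was at 0.538, 1.06, 8.48 and 30.5 CPM in EOM and at 0.718, 1.65, 3.83 and 26.3 CPM in TA. Most of the difference lay between 1 and at least 3 UMIs. Cox8b was at 0.0792, 0.244, 2.76 and 8.02 CPM in EOM and at 0.120, 0.331, 0.410 and 3.9 CPM in TA. Cox7a1 was at 4.78, 5.54, 6.70 and 8.37 CPM in EOM and without an even order in TA, at 1.99, 1.82, 2.87 and 5.49 CPM. Cox6b2 was highest in the class without Myog and had no even order, at 6.16, 3.99, 1.97 and 3.2 CPM in EOM and at 3.97, 2.73, 3.28 and 2.76 CPM in TA. Ndufv3 was at 117, 123, 160.5 and 227 CPM and at 79.1, 86.3, 89.1 and 132 CPM, and was higher in EOM than in TA in every class. Ndufa4l2 in EOM went the other way, at 19.0, 14.2, 4.53 and 4.03 CPM, and was between 0.248 and 0.731 CPM in TA. The summed members were at 37664, 37940, 39641 and 42628 CPM in EOM and at 34691, 35698, 36499.5 and 39372 CPM in TA, and Pax7 was at 118, 89.4, 45.3 and 10.7 CPM and at 90.5, 66.5, 48.0 and 16.9 CPM.

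**Figure D5:**
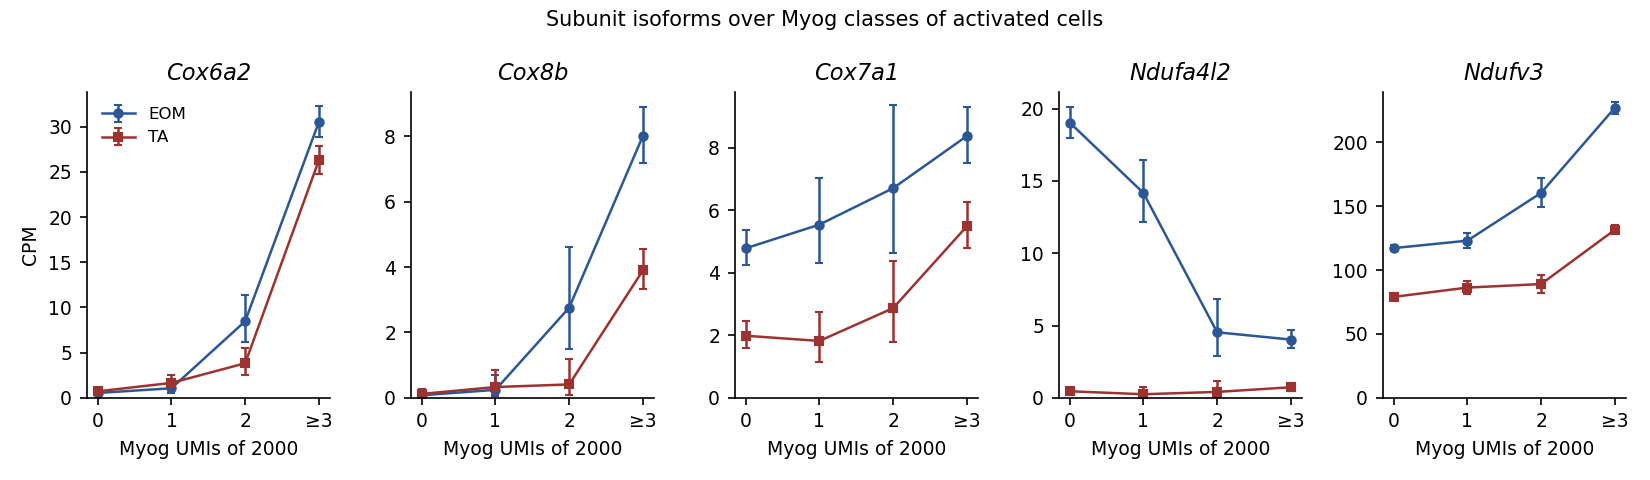
Isoform genes and Ndufv3 by the number of Myog UMIs among 2000 per cell in activated cells. The y axes give CPM, each on its own scale from 0, blue circles EOM and red squares TA, with 95% intervals for counting error. Cox6a2 and Cox8b are highest in the class with at least 3 Myog UMIs in both muscles (30.5 and 26.3 CPM for Cox6a2), Ndufa4l2 is highest in Myog-free EOM cells at 19.0 CPM, and EOM is above TA in every class for Ndufv3.

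Other genes of mitochondrial energy metabolism were counted from lists over the same contrasts, for which the shares of all genes are 35.3% higher and 33.3% lower in activated EOM cells and 38.9% and 32.2% in TA. Of 47 assembly factors of the complexes, 39 were higher and 3 lower in activated EOM cells, and 38 and 3 in TA, with medians of 1.17 and 1.27. Ttc19, a complex III factor, was lowest, at 107, 116, 32.6 and 29.0 CPM, followed by the complex IV factor Surf1, at 33.3, 28.3, 16.5 and 14 CPM. Cmc2 and Sdhaf4, factors for complexes IV and II, were highest, Cmc2 at 8.36, 5.93, 82.3 and 78.9 CPM and Sdhaf4 at 7.85, 2.15, 60.9 and 61.0 CPM. Of 77 mitochondrial ribosomal protein genes 71 were higher in EOM and 70 in TA, and 1 was lower in each (medians 1.58 and 1.78), Mrpl18 being at 16.1, 12.8, 308 and 316 CPM and Mrps6, the lower one, at 111, 123, 56.4 and 65.5 CPM. Of 10 carriers and accessory genes 9 and 6 were higher, with Ndufab1, the acyl carrier protein that is also a complex I subunit, at 128, 137, 625 and 638 CPM, and Vdac1, the outer membrane channel, at 59.6, 57.2, 395 and 345 CPM. Cycs, cytochrome c itself, was the lowest of that list, at 249, 289, 364 and 385 CPM. Of 20 genes of pyruvate entry and the citric acid cycle 13 and 11 were higher and none lower (medians 0.74 and 0.82), with Idh3a at 39.5, 54.9, 226 and 262 CPM and Mpc1, a subunit of the pyruvate carrier, at 148, 127, 132 and 99.6 CPM. Of 20 measured glycolysis genes 12 and 13 were higher and 2 lower in each (medians 1.99 and 1.58), with Eno3, the muscle enolase, at 3.04, 4.04, 503 and 783 CPM and Hk2, a hexokinase, at 65.3, 163, 11.4 and 6.58 CPM.

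Of 12 measured regulators of mitochondrial genes, 5 were higher and 3 lower in activated EOM cells and 4 and 2 in TA (medians 0.12 and 0.21). In EOM these are 41.7% and 25%, against 35.3% and 33.3% of all genes. In TA they are 33.3% and 16.7%, against 38.9% and 32.2%. Ppargc1b, a coactivator of respiratory genes, was at 1.72, 2.08, 24.4 and 24.3 CPM, and Tfam, the packaging and transcription factor of mitochondrial DNA, at 36.1, 39.7, 64.5 and 64.9 CPM. Pprc1, a coactivator of the same family as Ppargc1b, was at 33.4, 36, 17.5 and 16.1 CPM, and Polg, the mitochondrial DNA polymerase, at 30.6, 34.3, 15.3 and 15.7 CPM. In the Myog comparison, where 10.3% of all genes were higher and 16.7% lower in EOM and 7.91% and 8.80% in TA, the assembly factors had medians of -0.01 in EOM and -0.02 in TA and the mitochondrial ribosomal genes of -0.03 and -0.07, while the subunits were at 0.13 and 0.14. Pprc1 was again lower, at 23.2 and 11.5 CPM in Myog-free and Myog-holding EOM cells and 20.9 and 12.9 CPM in TA. The copper chaperone Cox17 was the highest assembly factor above 20 CPM in TA, at 81.2 and 101 CPM, and was at 70.3 and 101 CPM in EOM. Pgam2, a muscle phosphoglycerate mutase, was at 4.76 and 119.9 CPM in EOM and 11.1 and 99.5 CPM in TA.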

How the data were processed

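Single-cell RNA of 4 libraries was deposited by the authors as raw UMI counts per gene and barcode, and the submitters' processing notes name Cell Ranger 3.0.2 and mm10. Not given in the sources used here is the annotation release, or how reads shared with near-identical copies, which many subunit genes have, were handled. Barcodes with at least 500 genes and at most 10% mitochondrially encoded UMIs were kept. Automatic Scrublet calls marked 0 to 2 barcodes per library and had not worked, so the top-ranked 0.8% per 1000 barcodes were removed. Cells were clustered (scanpy 1.11.5, 2000 variable genes, 30 components, resolution 1), and 16 endothelial-like cells of quiescent TA were left out. A cluster of 557 quiescent EOM cells with Dcn, Lum and Col1a1 was kept because its stem cell markers summed to 4337 CPM against 4072 in other cells. UMIs were summed per library or Myog state and scaled to CPM. Ratios carry exact 95% conditional binomial intervals, and shares exact Clopper-Pearson ones, for counting error only. With 1 library per group no test was possible. Log2 ratios used a pseudocount of 1 CPM, and the 1.5-fold limit was applied to CPM without it.

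The members and lists were chosen with earlier results of these data known. Genes named were the 5 highest and 5 lowest members of each comparison at 20 CPM or more, isoform families, redox subunits, mitochondrially encoded genes and the extremes of each further list. Any member may be named besides, and of the mitochondrially encoded genes and further lists only part is printed. Alternatives were TMM (edgeR 4.0.16 on R 4.3.3) and median-of-ratios scaling, other caps and filters, other Myog divisions and a 2-fold limit. The ratios, intervals and fold limit were tested on simulated Poisson counts, and the cell filters, thinning and motif search were not. Gene positions are from GENCODE vM21 (GRCm38), and start-site windows from RefSeq (GRCm38.p6), which gave 64 of 80 members. The values of 1 complex I member are not reported here, though it is part of the counts and sums.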

Additional observations from a re-analysis of the deposited data

Results flagged for a closer look

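Among the members and the mitochondrially encoded genes, a pair of genes had activation ratios on opposite sides of 1 in the 2 muscles with both 95% counting intervals clear of 1, and for both the difference between muscles was not tested. Cox7a2l had a log2 ratio of activated over quiescent cells of -0.09 in EOM and 0.11 in TA, a difference of -0.20. For mt-Nd5, a complex I subunit gene of the mitochondrial genome, the log2 ratio was 0.04 in EOM and -0.20 in TA, a difference of 0.23. These signs hold for CPM. TMM scaling moved the median log2 ratio of all genes from 0.06 to 0.43 in EOM and from 0.14 to 0.41 in TA. That shift is larger than the distance from 0 of Cox7a2l in EOM and mt-Nd5 in TA, so the opposite signs depend on the scaling.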

How the results depend on the processing

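No paired analysis was possible because each group was 1 library. The alternatives were fixed at the start, except the one with no mitochondrial cap, which was chosen after seeing the data. No gene past the 1.5-fold limit changed sign, and of the medians below the one between quiescent EOM and TA did. The median log2 ratio of respiratory chain members moved as follows. Between quiescent EOM and TA TMM gave -0.088 and median-of-ratios scaling -0.097. Between activated EOM and TA it was 0.039 with median-of-ratios scaling and 0.13 in Myog-free cells. For activation in EOM it was 1.65 with TMM, 1.49 with median-of-ratios scaling, 1.07 with a 5% cap and 1.16 in Myog-free cells. For activation in TA it was 1.44, 1.33 and, in Myog-free cells, 1.08. Across Myog states in EOM it was 0.24 with TMM, 0.25 with median-of-ratios scaling and 0.17 without cells holding Mki67 or Top2a. In TA it was 0.23, 0.21 and 0.18, and 0.0796 with a 5% cap.

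Counts of members past the limit that moved by over 1.5 times were small throughout. Quiescent EOM against TA had 8 higher and 2 lower with a 5% cap, which leaves 263, 46, 612 and 489 cells. It had 1 higher at 20 CPM or at 2-fold and 1 lower with TMM, median-of-ratios scaling or no low filter. Activated EOM against TA had 1 higher at 20 CPM or at 2-fold. Activation had 2 lower in EOM with a 5% cap and 3 in Myog-free cells, and 1 lower in TA with TMM or at 2-fold. Across Myog states EOM had 0 higher with a 5% cap and 1 at 2-fold, and 0 lower at 20 CPM and 1 at 2-fold. TA had 0 higher with a 5% cap or at 20 CPM, and 2 with TMM, median-of-ratios scaling, no low filter, a mean over cells or no Mki67 or Top2a, and 1 lower with 0 against at least 3 Myog UMIs or without Mki67 or Top2a. Depth limits the rare isoforms most, since Cox6a2 has 3 UMIs and 1 UMI in the quiescent libraries.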
